A study of Homo sapiens with 9 samples.

Results

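The actin and focal adhesion machinery is described here as 55 genes of actin filaments, their regulators and the integrin adhesions that filaments attach to, measured by bulk RNA sequencing of FaDu, an established human cell line of hypopharyngeal squamous carcinoma. The members were chosen by gene name from their known roles, with earlier results of these data known, and were 55 of the 58735 genes in the deposited count table. By label, 3 libraries carried a knockdown of AMIGO2 together with overexpression of CAPN2 (called KD+CAPN2 here), 3 carried the knockdown alone (called KD), and 3 were wild-type normal controls. All 9 came from the same line under the same listed culture medium with no treatment named, and each set was labelled as biological replicates 1 to 3. The sources used here do not give the means of knockdown and overexpression, the vectors of the controls, or whether a group was 1 clone or a pool. AMIGO2 is a leucine-rich repeat protein of the cell surface, and CAPN2 encodes the large subunit of the protease calpain-2. The design asks which RNAs differ when AMIGO2 is depleted, and which when calpain-2 is then raised. Of the 55 members, 54 had enough counts to be tested, and only ILK did not.

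The RNA of both named genes was read first, as a check of the labels. AMIGO2 stood at 42.8, 35.3 and 38.8 CPM in libraries labelled KD+CAPN2. The AMIGO2 level was 24.5, 31.3 and 27.3 CPM in libraries labelled KD and 29.5, 26.1 and 27.2 CPM in control. The libraries labelled KD overlapped the control libraries (log2 fold change 0.01, 95% interval -0.23 to 0.25, edgeR adjusted p = 0.971). Those labelled KD+CAPN2 all lay above the other 6 (log2 0.49 ± 0.11, adjusted p = 0.0014 against KD, where the value after ± is the SE of a log2 fold change, as throughout). CAPN2 stood at 498, 498 and 500.2 CPM in libraries labelled KD+CAPN2. The CAPN2 level was 395, 424 and 435 CPM in libraries labelled KD and 447, 474 and 466 CPM in control. Libraries labelled KD+CAPN2 were higher than those labelled KD (log2 0.26 ± 0.079, adjusted p = 0.012), while the difference from control was not called (log2 0.11 ± 0.079, adjusted p = 0.254). Since a lower AMIGO2 level was not seen under either knockdown label, directions given here compare libraries by their labels, not by a measured loss of AMIGO2 RNA.

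As background, actin monomers assemble into filaments that push and pull on the cell membrane. Profilins and thymosins bind monomers, cofilin severs filaments, and capping protein closes their fast-growing ends. The Arp2/3 complex starts branches, formins and Ena/VASP proteins lengthen filaments, crosslinkers and tropomyosins shape them into bundles, and myosin II slides them. At focal adhesions talin, kindlin, vinculin, paxillin and focal adhesion kinase connect filaments to integrins, and several of these proteins are textbook substrates of calpains. Serum response factor, which binds the CArG box, is a known regulator of actin and actin-binding genes, with a cofactor that is itself bound by actin monomers.

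Promoter sequences are shown for the members with a CArG box, because that box is the sequence that serum response factor binds. RefSeq promoter windows, from 250 bases before to 50 bases after the start of a gene on GRCh38.p14, were matched by symbol for 46 of the 55 members (71 windows). A CArG box was found in 4 of the 46 members (8.7%), against 1.6% of the 27305 genes with a window. Members without a window could not be searched. The capitals mark the box, each stretch lies upstream of the start and reads 5′ to 3′ on the gene's strand:
ACTN1, chr14:68977688-68977777, minus strand: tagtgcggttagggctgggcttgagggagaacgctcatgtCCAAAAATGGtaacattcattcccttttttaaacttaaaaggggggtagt
ACTG1, chr17:81512844-81512933, minus strand: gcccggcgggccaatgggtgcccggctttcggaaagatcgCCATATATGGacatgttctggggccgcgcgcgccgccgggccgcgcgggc
TPM4, chr19:16067325-16067414, plus strand: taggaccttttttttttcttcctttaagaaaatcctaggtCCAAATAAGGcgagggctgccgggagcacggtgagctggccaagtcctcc
FLNA, chrX:154374679-154374768, minus strand: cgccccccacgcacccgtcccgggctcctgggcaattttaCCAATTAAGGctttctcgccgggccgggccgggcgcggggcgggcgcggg
The box began 171 bases before the start in ACTN1, 94 in ACTG1, 173 in TPM4 and 94 in FLNA. A pair of other letter strings were searched on both strands of the same windows. GGAATG, a core bound by TEAD factors, was present in 9 of the 46 members (19.6%), against 16.7% of all genes. TGANTCA, the AP-1 site, was present in 4 of the 46 (8.7%), against 9.37%. No box position overlapped a match of the other strings. These matches describe letters in a window, not binding.

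Libraries held between 15158607 and 19737562 counts, so that 3 counts, the limit below which a level cannot be told from 0, corresponded to 0.152 to 0.198 CPM. CPM is a count divided by the library total and scaled to a common size, here with TMM factors, and such limits cover counting error only. Gene positions below are on GRCh38. Over all genes, log2 fold changes fell with the GC content of a gene in libraries labelled KD against control (Spearman correlation -0.363 across 16802 genes) and in those labelled KD+CAPN2 against control (-0.287). Between KD+CAPN2 and KD the correlation was -0.083. These correlations are across genes, which are not independent replicates. A fit with an offset for GC content and length was therefore among the alternatives, and its value is given beside each call that it ended. Libraries labelled KD varied more among themselves, with a median coefficient of variation of 11.3% over the tested members, against 4.82% in those labelled KD+CAPN2 and 4.05% in control. All 9 squamous epithelial markers examined were tested, and their summed level was 5191 to 5818 CPM in libraries labelled KD+CAPN2, 4778 to 5883 CPM in those labelled KD and 8951 to 9423 CPM in control. Much of that difference was KRT5, with means of 1616, 1207 and 4437 CPM in that order. By their means KRT6A, KRT14, SFN and DSP were also lower in both labelled sets than in control. CDH1 was higher in both (614 and 455 against 381 CPM). KRT17 and EPCAM were above control only in libraries labelled KD, and TP63 only in those labelled KD+CAPN2. Of the fibroblast markers 6 of 7 never exceeded 3 counts, the exception being COL1A1. The blood and immune markers, 5 in number, summed to at most 0.448 CPM. In smooth muscle markers DES, CNN1 and LMOD1 never exceeded 3 counts, and the sum with MYH11 and ACTA2 was at most 7.38 CPM. The endothelial sum was 16.2 to 16.5 CPM in libraries labelled KD+CAPN2, 43.3 to 49.5 CPM in those labelled KD and 17.6 to 22.5 CPM in control, while KDR and TEK never exceeded 3 counts. Most of it was CDH5, with means of 13.7, 43.2 and 14.8 CPM in libraries labelled KD+CAPN2, those labelled KD and control, beside 2.61, 2.44 and 5.67 CPM of VWF. The neuron or glia sum was at most 2.28 CPM. The part of these differences in the results below was not tested. In bulk RNA, fewer cells of a type and less RNA per cell cannot be told apart.

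Across the 54 tested members, the libraries labelled KD+CAPN2 stood lower than both other sets. Summed over members, the level was 19481 ± 584 CPM in libraries labelled KD+CAPN2, 26136 ± 1208 CPM in those labelled KD and 26209 ± 773 CPM in control (SD, n = 3 each). The actins ACTB and ACTG1 made up 35.9% to 44.4% of that sum in single libraries. Without them the sum was 11709 to 12527 CPM in libraries labelled KD+CAPN2. It was then 14011 to 15977 CPM in those labelled KD and 16238 to 17086 CPM in control. All 3 libraries labelled KD+CAPN2 lay below all other 6 libraries in 23 members, beside 20.3% of all 16812 genes tested. They lay above them in 3 (TMSB4X, TNS3 and PTK2), beside 20.4%. Libraries labelled KD lay above all others in 9 members (7.7% of all genes) and below them in 5 (7.46%).

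**Figure D1:**
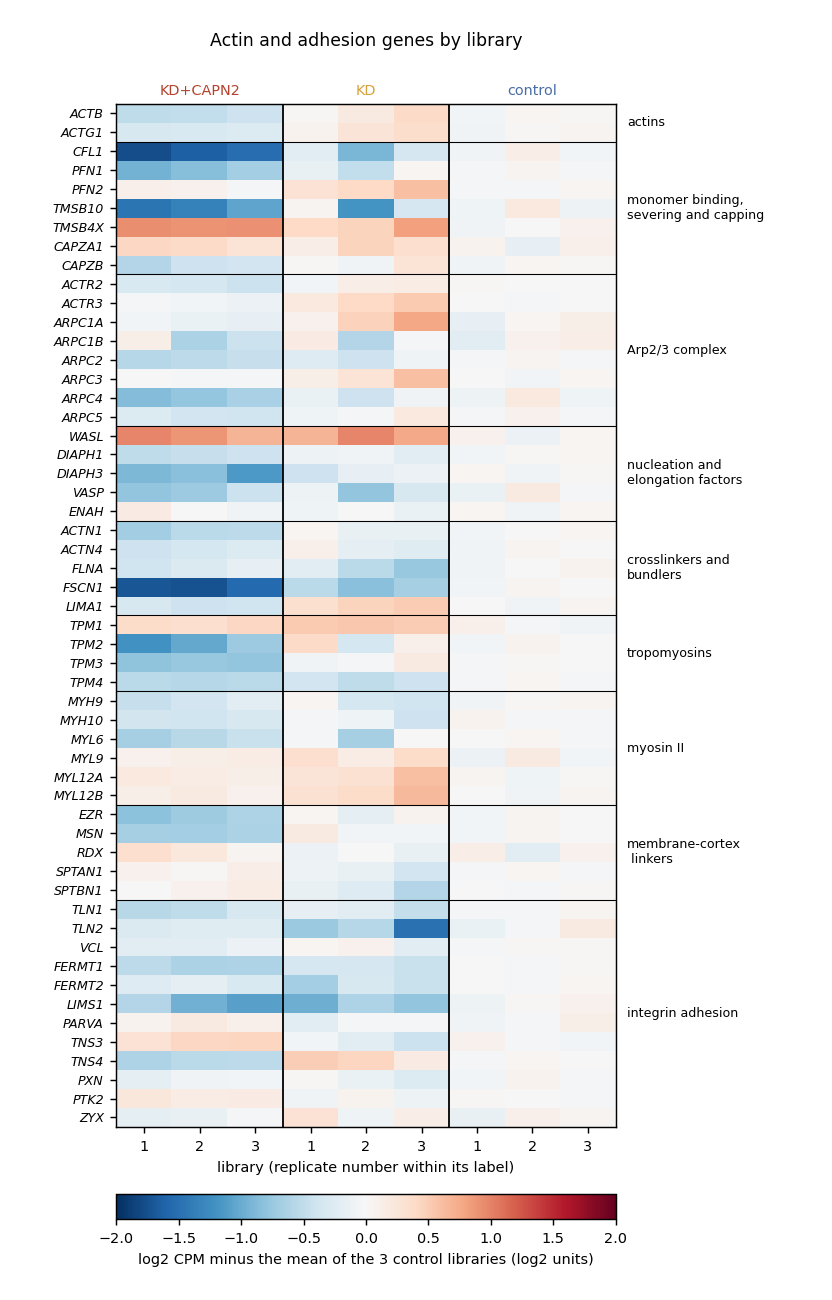
Level of each of the 54 tested members (rows, by role) in each of the 9 libraries (columns, in 3 sets by label), as log2 CPM minus the mean of the 3 control libraries; blue is lower and red higher. The 3 libraries labelled KD+CAPN2 are blue in most rows, with CFL1, FSCN1 and TMSB10 the darkest, and red in TMSB4X and WASL.

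The counts of calls were read against those over all genes, since many genes differed between these libraries. A gene was called at an adjusted p under 0.05 in edgeR's quasi-likelihood test over 16812 genes. Between libraries labelled KD+CAPN2 and those labelled KD, 49.2% of all genes were called (23.7% higher, 25.6% lower). Of the 54 members, 7 rose and 30 fell in that comparison, with a median log2 fold change of -0.26, against 0.01 over all genes. Most members are abundant, and abundant genes fell more often: of the 4540 genes with a mean of at least 50 CPM, 40.3% were called lower and the median was -0.13. In either direction 63.4% of those genes were called, beside 68.5% of the members. In libraries labelled KD against control, 34.6% of all genes were called (16.0% higher, 18.5% lower), and 12 members rose and 12 fell. Their median was -0.09 against -0.01 over all genes. That share of members called, 44.4%, was close to the 48.5% called among genes of at least 50 CPM. In libraries labelled KD+CAPN2 against control, 56.3% of all genes were called (27.9% higher, 28.4% lower), and 5 members rose and 31 fell. Their median was -0.35 against 0.02 over all genes and -0.17 over genes of at least 50 CPM, of which 45.8% were called lower. In either direction 71.4% of those abundant genes were called, beside 66.7% of the members. In KD against control, 30.2% of the genes of at least 50 CPM were called lower. The 3 comparisons share libraries, so their counts are not independent of each other.

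The 7 rises between libraries labelled KD+CAPN2 and KD were the least stable count: 3 rose without library 3 labelled KD, 4 without library 1 labelled KD+CAPN2, and 3 with the GC and length offset (2 with a replicate block added). The 5 rises in libraries labelled KD+CAPN2 against control became 9 with upper-quartile factors, under which the median of all genes moved to 0.13. They became 9 in the fit to those groups alone, and 8 with the GC and length offset. Members not called also depended on the processing. Of these, 10 of 17 for KD+CAPN2 against KD, 14 of 30 for KD against control and 10 of 18 for KD+CAPN2 against control were called in at least 1 of the 18 alternatives.

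**Figure D2:**
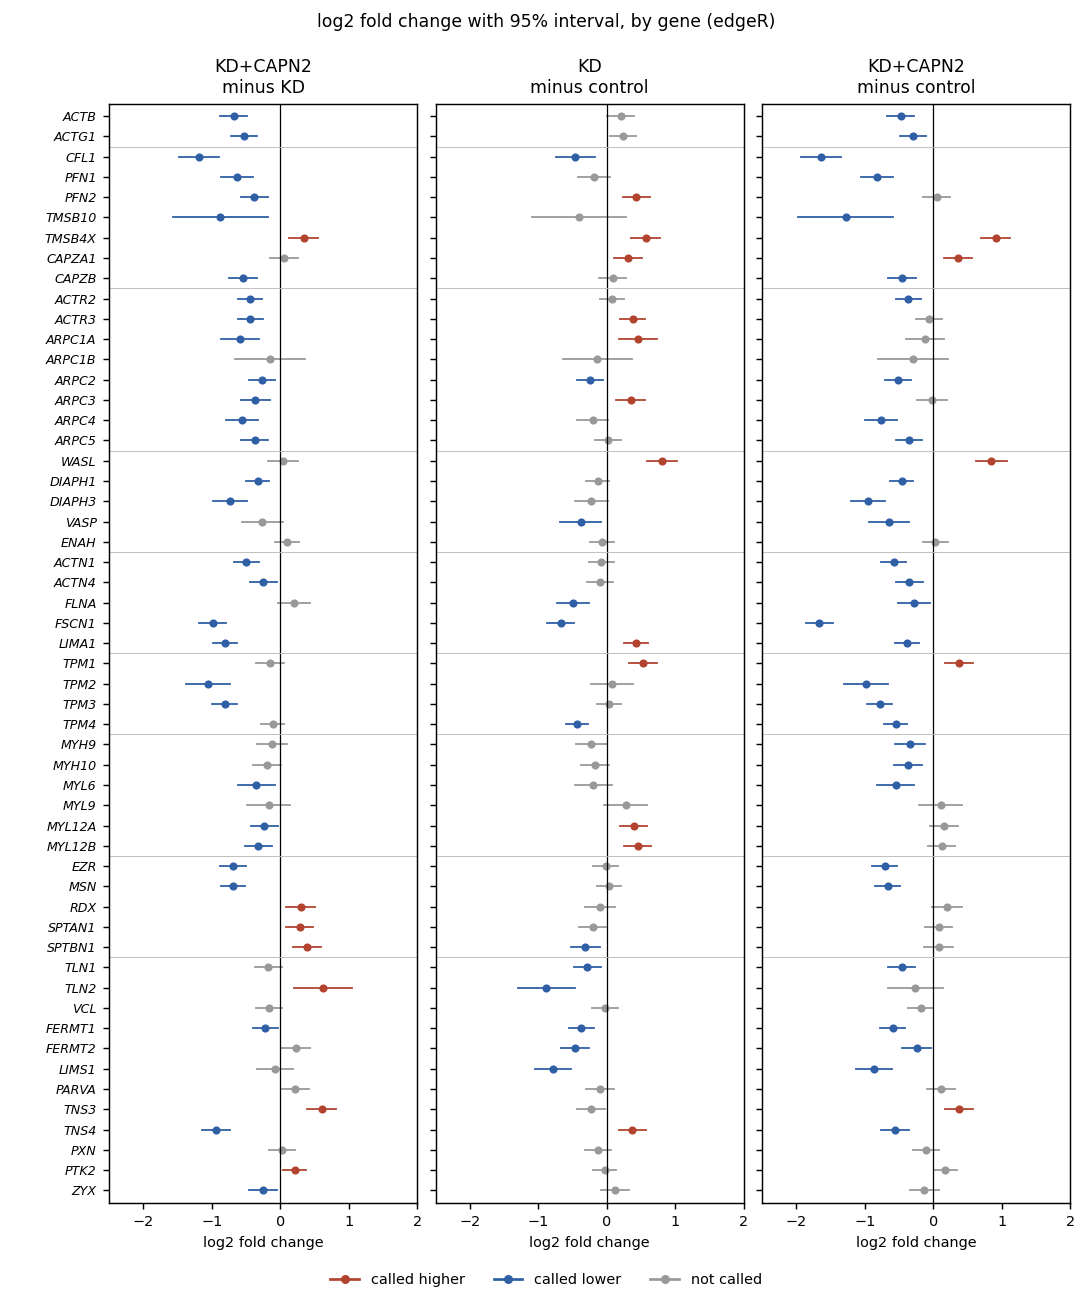
Log2 fold change (horizontal axis) of each tested member (rows, by role) in the 3 comparisons (panels), with its 95% interval from edgeR; red is called higher, blue called lower and grey not called. In the left panel 30 members are blue and 7 red, in the middle panel 12 are blue and 12 red, and in the right panel 31 are blue and 5 red.

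Both cytoplasmic actins were lower in libraries labelled KD+CAPN2 than in either other set. ACTG1, which encodes γ-actin (chr17:81509971-81523847, - strand), stood at 4893, 4932 and 5072 CPM in libraries labelled KD+CAPN2. The ACTG1 level was 6443, 7283 and 7812 CPM in libraries labelled KD and 5847, 6194 and 6324 CPM in control. The sets did not overlap for ACTG1, with libraries labelled KD highest. It fell 1.45-fold against KD (log2 -0.53 ± 0.091, adjusted p = 8.17e-05) and 1.23-fold against control (log2 -0.30 ± 0.091, adjusted p = 0.00821), while the difference between KD and control was not called (log2 0.23 ± 0.091, adjusted p = 0.0565). ACTB, which encodes β-actin (chr7:5527147-5563784, - strand), stood at 2358, 2382 and 2514 CPM in libraries labelled KD+CAPN2. The ACTB level was 3427, 3804 and 4378 CPM in libraries labelled KD and 3235, 3441 and 3425 CPM in control. All 3 libraries labelled KD+CAPN2 lay below the other 6, and the other sets overlapped. ACTB fell 1.60-fold against KD (log2 -0.68 ± 0.095, adjusted p = 8.82e-06) and 1.39-fold against control (log2 -0.48 ± 0.094, adjusted p = 0.000264), and was not called between KD and control (log2 0.20 ± 0.094, adjusted p = 0.107). Together the actins held 7384 ± 178, 11049 ± 1161 and 9488 ± 357 CPM in the libraries labelled KD+CAPN2, those labelled KD and control (SD, n = 3 each). Per length they were the most abundant members, at 2034 and 914.5 CPM per kilobase for ACTG1 and ACTB averaged over groups. The fall of ACTG1 against control was not called with upper-quartile factors or with the GC and length offset, alone or with the replicate block (log2 -0.20 to -0.00018, adjusted p from 0.0647 to 0.999). With that offset the value was log2 -0.0019 to -0.00018 (adjusted p from 0.987 to 0.999). The fall of ACTB against control shrank with the same offset (log2 -0.21 to -0.20, adjusted p from 0.0327 to 0.0332). Between KD and control ACTG1 was called higher in 9 of 18 alternatives (log2 0.23 to 0.41, adjusted p from 0.000611 to 0.0481), and ACTB in 4 of 18 (log2 0.24 to 0.35, adjusted p from 0.00173 to 0.0482), the GC and length offset among them for both.

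**Figure D3:**
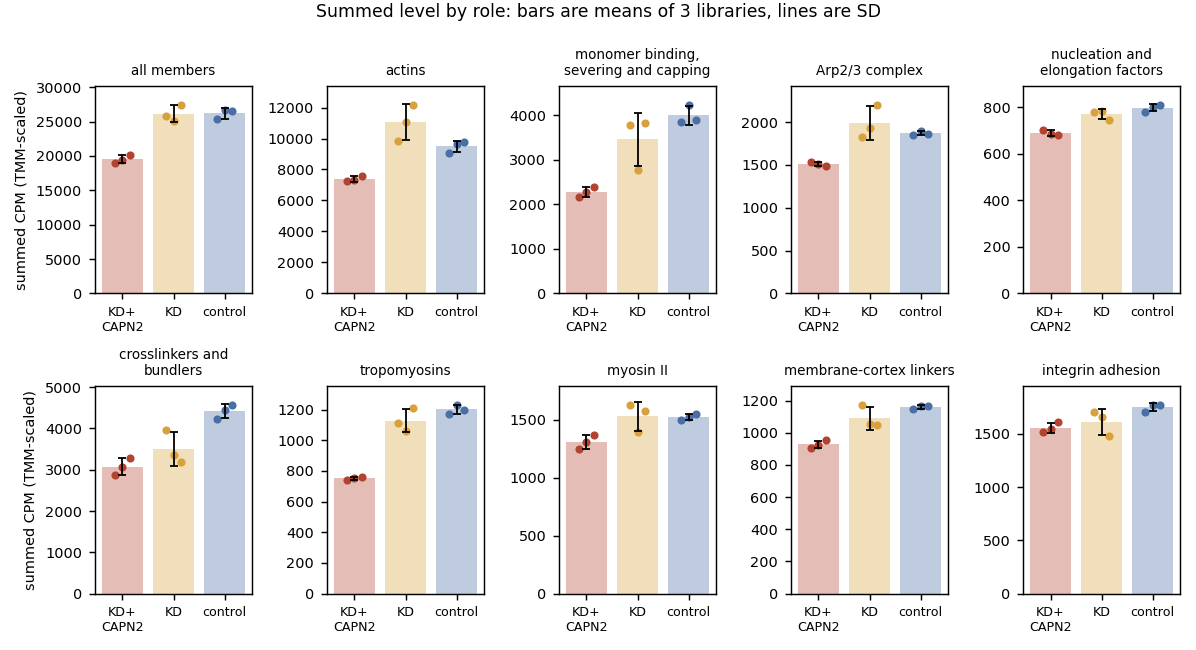
Summed CPM of all members and of each role group, with bars at the mean of 3 libraries, lines at the SD and points for single libraries; the sets are named by label. In the actin panel the 3 libraries labelled KD+CAPN2 sit between 7251 and 7586 CPM, below all others, and in the tropomyosin panel between 741 and 760 CPM.

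Among the proteins that bind monomers, sever filaments or cap them, cofilin and thymosin β10 fell most in libraries labelled KD+CAPN2, while thymosin β4 rose. Of these 7 members, 1 rose and 5 fell against KD, 2 rose and 4 fell against control, and 3 rose and 1 fell between KD and control. That is 85.7%, 85.7% and 57.1% called, beside 49.2%, 56.3% and 34.6% of all genes. Of genes of at least 50 CPM, 63.4%, 71.4% and 48.5% were called in that order. CFL1, the gene of the severing protein cofilin (chr11:65823022-65862026, - strand), stood at 553, 615 and 657 CPM in libraries labelled KD+CAPN2. The CFL1 level was 1635, 1003 and 1510.2 CPM in libraries labelled KD and 1815, 2072 and 1818 CPM in control. The sets did not overlap, with library 2 labelled KD well below the other libraries of that label. CFL1 fell 2.27-fold against KD (log2 -1.18 ± 0.14, adjusted p = 1.85e-06) and 3.13-fold against control (log2 -1.64 ± 0.14, adjusted p = 2.42e-08). It also fell between KD and control (log2 -0.46 ± 0.14, adjusted p = 0.014). TMSB10, the gene of the monomer-sequestering thymosin β10 (chr2:84905625-84906675, + strand), stood at 188, 203 and 249.6 CPM in libraries labelled KD+CAPN2. The TMSB10 level was 539, 226 and 410.4 CPM in libraries labelled KD and 488, 589 and 479 CPM in control. Library 2 labelled KD, the lowest of its set, lay within the range of those labelled KD+CAPN2, and the other libraries labelled KD lay far above. TMSB10 fell 2.43-fold against control (log2 -1.28 ± 0.30, adjusted p = 0.00722), and its fall against KD only just passed (log2 -0.88 ± 0.29, adjusted p = 0.0412). TMSB4X, which encodes thymosin β4 (chrX:12975108-12977227, + strand), stood at 367, 359 and 366 CPM in libraries labelled KD+CAPN2. The TMSB4X level was 255, 264 and 341 CPM in libraries labelled KD and 183, 193 and 204 CPM in control. The 3 sets did not overlap and stood in the opposite order to CFL1. It rose 1.27-fold against KD (log2 0.34 ± 0.10, adjusted p = 0.00794), 1.88-fold against control (log2 0.91 ± 0.10, adjusted p = 3.51e-07) and 1.48-fold between KD and control (log2 0.57 ± 0.10, adjusted p = 0.000266). Of the profilins, which deliver monomers to growing ends, PFN1 fell against KD (log2 -0.63) and control (-0.82). PFN2 fell against KD (-0.38), rose between KD and control (0.43) and did not pass against control (0.05). The capping protein subunits parted as well. CAPZB fell in libraries labelled KD+CAPN2 against KD (-0.54) and control (-0.46). CAPZA1 rose against control (0.36) and in libraries labelled KD (0.30). The fall of CFL1 between KD and control was not called without library 2 or 3 labelled KD or without control library 2 (log2 -0.53 to -0.24, adjusted p from 0.0503 to 0.0666). Nor was it with the GC and length offset (log2 -0.28 to -0.27, adjusted p from 0.0898 to 0.0937). That of TMSB10 against KD was not called without any 1 of 8 libraries, all but library 2 labelled KD (log2 -1.01 to -0.59, adjusted p from 0.0529 to 0.117), nor in 6 of 9 alternative fits (log2 -0.91 to -0.79, adjusted p from 0.0596 to 0.11), the offset with a replicate block among them (log2 -0.91, adjusted p = 0.0682). The rise of CAPZA1 in libraries labelled KD was not called without control library 2 (log2 0.22, adjusted p = 0.141) or with the GC and length offset (log2 0.16, adjusted p from 0.0622 to 0.083). The exons of CFL1 overlap those of MUS81 on the other strand over 12.9% of their length and those of CAPZA1 overlap ST7L over 15.1%. Whether the counting kept reads of the strands apart is not given in the sources used here. With the GC and length offset the rise of PFN2 between KD and control (log2 0.26, adjusted p from 0.00291 to 0.00486) and the fall of CAPZB against control (log2 -0.21, adjusted p from 0.0121 to 0.0149) were smaller. CAPZB was then called higher between KD and control (log2 0.18 to 0.19, adjusted p from 0.0369 to 0.0404). In that comparison PFN1 was called lower without library 3 labelled KD (log2 -0.31, adjusted p = 0.024), and TMSB10 without library 1 labelled KD (log2 -0.70, adjusted p = 0.0425).

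**Figure D4:**
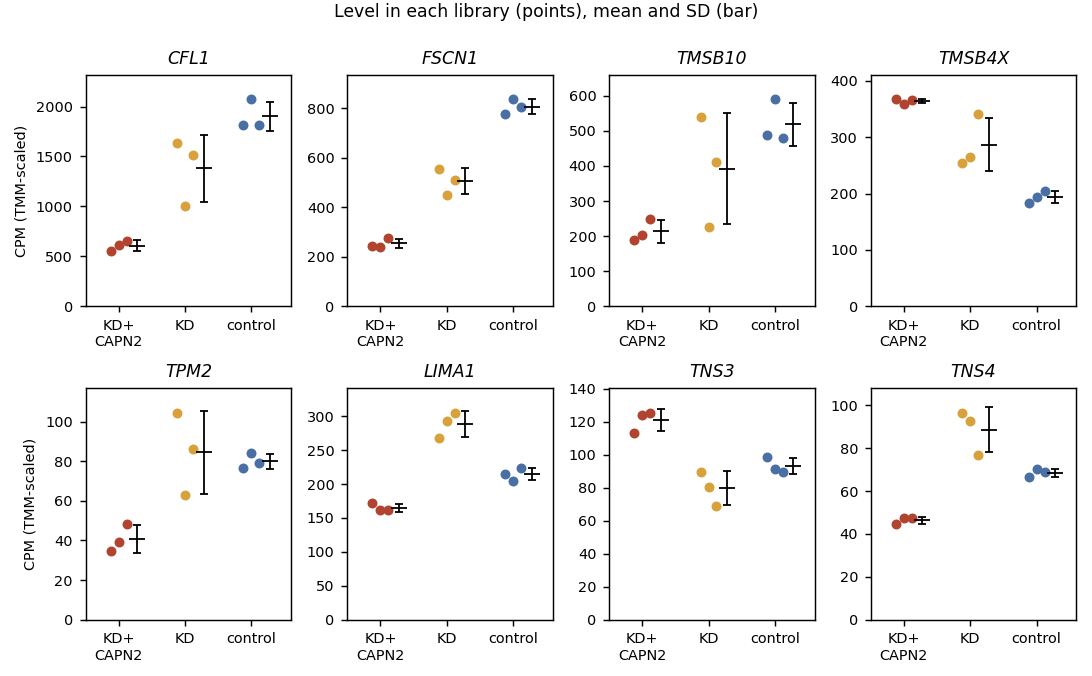
CPM in each library (points) with the mean and SD (bar) for 8 members, in 3 sets from left to right; the sets are named by label. CFL1 and FSCN1 are lowest in the libraries labelled KD+CAPN2, TMSB4X is highest there, and TNS3 and TNS4 stand in opposite orders.

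The Arp2/3 complex, which starts filament branches, was lower in libraries labelled KD+CAPN2 than in those labelled KD across most of its subunits. Of its 8 genes, 0 rose and 7 fell in that comparison, with log2 fold changes between -0.58 and -0.27. That is 87.5% called lower, beside 25.6% of all genes and 40.3% of genes of at least 50 CPM. The 1 gene that did not pass, ARPC1B, had only 3.33 CPM in libraries labelled KD+CAPN2, 3.72 CPM in those labelled KD and 4.06 CPM in control. In the annotation, 32.4% of its exon bases overlap the readthrough gene AC004922.1, as 58.4% of those of ARPC1A do. Against control 4 fell and 0 rose, and between KD and control 3 rose and 1 fell. In either direction 56.3% and 34.6% of all genes were called in those comparisons, and 71.4% and 48.5% of genes of at least 50 CPM. The share of the subunits called was below that of those abundant genes against control and near it between KD and control. ACTR2, the gene of the Arp2 subunit and the most abundant of the group in CPM (chr2:65227753-65271253, + strand), stood at 409.8, 399.7 and 377 CPM in libraries labelled KD+CAPN2. The ACTR2 level was 489, 559 and 565 CPM in libraries labelled KD and 515, 507 and 503 CPM in control. All libraries labelled KD+CAPN2 lay below the other 6, and the other sets overlapped. ACTR2 fell against KD (log2 -0.44 ± 0.084, adjusted p = 0.000236) and control (log2 -0.36 ± 0.084, adjusted p = 0.00115). ARPC4 (chr3:9792495-9807726, + strand) stood at 43.8, 46.8 and 50.8 CPM in libraries labelled KD+CAPN2. The ARPC4 level was 73.0, 60.1 and 75.9 CPM in libraries labelled KD and 74.3, 91.4 and 74.98 CPM in control. Its libraries were ordered in the same way, with falls against KD (log2 -0.56 ± 0.11, adjusted p = 0.000352) and control (log2 -0.77 ± 0.11, adjusted p = 9.25e-06). ARPC2, a subunit that holds the complex on the side of the mother filament (chr2:218217094-218254356, + strand), stood at 327, 338 and 352 CPM in libraries labelled KD+CAPN2. The ARPC2 level was 408, 365 and 455 CPM in libraries labelled KD and 474, 503 and 479.9 CPM in control. Its 3 sets did not overlap, with control highest. ARPC2 fell against KD (log2 -0.27 ± 0.089, adjusted p = 0.0167), against control (log2 -0.52 ± 0.089, adjusted p = 6.43e-05) and between KD and control (log2 -0.25 ± 0.089, adjusted p = 0.0378). ARPC1A (chr7:99325910-99366262, + strand) stood at 44.1, 42.2 and 41.2 CPM in libraries labelled KD+CAPN2. The ARPC1A level was 48.9, 63.4 and 78.8 CPM in libraries labelled KD and 41.1, 47.4 and 50.2 CPM in control, and its libraries labelled KD were widely spread, 1 of them within the control range. It fell against KD (log2 -0.58 ± 0.13, adjusted p = 0.00124), was higher between KD and control (log2 0.46 ± 0.13, adjusted p = 0.011) and did not pass against control (log2 -0.12 ± 0.13, adjusted p = 0.454). ACTR3 and ARPC3 had the same calls, with log2 fold changes of -0.44 and -0.37 against KD and 0.38 and 0.35 between KD and control. ARPC5 fell against KD (-0.38) and control (-0.35). Between KD and control, the rises of ACTR3 and ARPC3 were not called with the GC and length offset (log2 0.10, adjusted p from 0.368 to 0.379 and log2 0.08 to 0.09, adjusted p from 0.361 to 0.379). ARPC3 was not called there without control library 2 (log2 0.32, adjusted p = 0.0597), and had smaller values without library 3 labelled KD (log2 0.20, adjusted p = 0.0465 in that comparison, log2 -0.23, adjusted p = 0.0199 for KD+CAPN2 against KD). ARPC1A was not called there without library 3 labelled KD or control library 1 (log2 0.28 to 0.38, adjusted p from 0.0684 to 0.0776). ARPC2 was not without library 2 labelled KD, library 1 or 2 labelled KD+CAPN2 or any control library (log2 -0.27 to -0.14, adjusted p from 0.0627 to 0.233), nor in 4 of 9 alternative fits (log2 -0.25 to -0.20, adjusted p from 0.0546 to 0.113). The fall of ARPC2 against KD was not called without library 2 labelled KD+CAPN2 (log2 -0.27, adjusted p = 0.0555) or with upper-quartile factors (log2 -0.21, adjusted p = 0.0577). With the GC and length offset the falls of ACTR3 and ARPC5 against KD (log2 -0.77, adjusted p from 2.20e-07 to 7.05e-07 and log2 -0.59, adjusted p from 0.000241 to 0.000336) and of ACTR2 and ARPC5 against control (log2 -0.62, adjusted p from 1.87e-08 to 1.62e-07 and log2 -0.77 to -0.76, adjusted p from 2.06e-05 to 3.02e-05) were larger. ACTR3 and ARPC3, not called against control otherwise, were then called lower (log2 -0.67, adjusted p from 8.28e-07 to 3.23e-06 and log2 -0.24, adjusted p from 0.00485 to 0.00951). ARPC4 shares 13.3% of its exon bases with TADA3 on the other strand, which had about as many counts.

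Among the 5 factors that start or lengthen filaments, the formins fell and N-WASP rose. WASL encodes N-WASP, which switches on the Arp2/3 complex (chr7:123681935-123749067, - strand), and stood at 123, 115 and 100.1 CPM in libraries labelled KD+CAPN2. The WASL level was 99.7, 124 and 106 CPM in libraries labelled KD and 66.0, 57.5 and 64.5 CPM in control. Both labelled sets overlapped each other and lay wholly above control. WASL rose 1.80-fold in libraries labelled KD+CAPN2 against control (log2 0.85 ± 0.10, adjusted p = 1.29e-06) and 1.75-fold in those labelled KD (log2 0.81 ± 0.10, adjusted p = 1.03e-05), and did not pass between the labelled sets (log2 0.04 ± 0.10, adjusted p = 0.764). DIAPH3, a formin that builds unbranched filaments (chr13:59665583-60163987, - strand), stood at 18.8, 19.6 and 15.7 CPM in libraries labelled KD+CAPN2. The DIAPH3 level was 26.4, 31.1 and 32.4 CPM in libraries labelled KD and 35.9, 33.4 and 35.7 CPM in control, with libraries labelled KD+CAPN2 below all others and control above all others. It fell against KD (log2 -0.73 ± 0.12, adjusted p = 3.84e-05) and control (log2 -0.96 ± 0.12, adjusted p = 1.13e-06). DIAPH1, the more abundant formin (chr5:141515016-141619055, - strand), stood at 265, 276 and 284 CPM in libraries labelled KD+CAPN2. The DIAPH1 level was 352, 359 and 327 CPM in libraries labelled KD and 364, 384 and 389 CPM in control, in the same order of sets, and fell less against KD (log2 -0.33 ± 0.081, adjusted p = 0.00227) and control (log2 -0.46 ± 0.081, adjusted p = 7.74e-05). For neither formin did the difference between KD and control pass (log2 -0.22 and -0.13). VASP, which protects growing ends from capping (chr19:45506579-45526983, + strand), stood at 68.4, 71.3 and 87.2 CPM in libraries labelled KD+CAPN2. The VASP level was 109.5, 68.5 and 94.4 CPM in libraries labelled KD and 107, 133 and 114 CPM in control. Library 2 labelled KD lay inside the range of those labelled KD+CAPN2, while control lay above that range. It fell in libraries labelled KD+CAPN2 against control (log2 -0.65 ± 0.14, adjusted p = 0.000843) and in those labelled KD (log2 -0.38 ± 0.14, adjusted p = 0.0426), and did not pass between the labelled sets (log2 -0.26 ± 0.14, adjusted p = 0.136). Its relative ENAH did not pass in any comparison (log2 0.10, -0.07 and 0.03 for KD+CAPN2 against KD, KD against control and KD+CAPN2 against control). The fall of VASP between KD and control was not called without library 2 or 3 labelled KD, 1 or 2 labelled KD+CAPN2, or control library 2 or 3 (log2 -0.41 to -0.18, adjusted p from 0.0539 to 0.247). Nor was it in 4 of 9 alternative fits, the GC and length offset among them (log2 -0.35 to -0.18, adjusted p from 0.0705 to 0.163; log2 -0.19 to -0.18, adjusted p from 0.15 to 0.163 with the offset). Its fall against control shrank with the GC and length offset (log2 -0.34 to -0.33, adjusted p from 0.00749 to 0.0113). Against KD, VASP was called lower with no filter on low counts or without library 2 labelled KD (log2 -0.47 to -0.30, adjusted p from 0.00191 to 0.0182). With the GC and length offset DIAPH3 and ENAH were called lower between KD and control (log2 -0.40, adjusted p from 0.00132 to 0.00265 and log2 -0.23, adjusted p from 0.00575 to 0.00825), and ENAH in the other comparisons too (log2 -0.18 to -0.17, adjusted p from 0.0192 to 0.0253 against KD, log2 -0.40, adjusted p from 8.49e-06 to 2.32e-05 against control).

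All 5 crosslinkers and bundlers fell in libraries labelled KD+CAPN2 against control, 4 of them also against KD. Called lower in those comparisons were 28.4% and 25.6% of all genes, and 45.8% and 40.3% of genes of at least 50 CPM. FSCN1, the gene of fascin, which packs filaments into the tight bundles of filopodia (chr7:5592823-5606655, + strand), stood at 245, 241 and 275 CPM in libraries labelled KD+CAPN2. The FSCN1 level was 554, 449 and 509.7 CPM in libraries labelled KD and 775, 836 and 806 CPM in control. Its 3 sets did not overlap, with control highest. FSCN1 fell 3.17-fold against control (log2 -1.67 ± 0.094, adjusted p = 5.95e-11), 1.99-fold against KD (log2 -0.99 ± 0.093, adjusted p = 7.27e-08) and 1.60-fold between KD and control (log2 -0.68 ± 0.092, adjusted p = 1.75e-05). LIMA1, which encodes the filament stabiliser EPLIN (chr12:50175788-50283546, - strand), stood at 172, 161 and 162 CPM in libraries labelled KD+CAPN2. The LIMA1 level was 268, 293 and 305 CPM in libraries labelled KD and 215, 205 and 223 CPM in control. Again no sets overlapped, but libraries labelled KD were highest. LIMA1 fell 1.75-fold against KD (log2 -0.81 ± 0.084, adjusted p = 2.59e-07) and 1.3-fold against control (log2 -0.38 ± 0.084, adjusted p = 0.000768), and rose between KD and control (log2 0.43 ± 0.083, adjusted p = 0.000567). ACTN1, an α-actinin that crosslinks filaments and carries a CArG box in the window shown above (chr14:68874143-68979440, - strand), stood at 442, 492 and 496 CPM in libraries labelled KD+CAPN2. The ACTN1 level was 735, 640.1 and 645 CPM in libraries labelled KD and 689.9, 714 and 736 CPM in control. Libraries labelled KD+CAPN2 lay below all others and the other sets overlapped. ACTN1 fell against KD (log2 -0.50 ± 0.087, adjusted p = 0.0001) and control (log2 -0.58 ± 0.087, adjusted p = 1.33e-05). FLNA, the gene of filamin A, a crosslinker that also binds integrins (chrX:154348524-154374638, - strand), stood at 1613, 1736 and 1892 CPM in libraries labelled KD+CAPN2. The FLNA level was 1821, 1473 and 1257 CPM in libraries labelled KD and 2018, 2130.4 and 2246 CPM in control. Control libraries were highest and the labelled sets overlapped. FLNA fell in libraries labelled KD (log2 -0.49 ± 0.11, adjusted p = 0.00229) and, less firmly, in those labelled KD+CAPN2 against control (log2 -0.29 ± 0.11, adjusted p = 0.036), and did not pass between them (log2 0.20 ± 0.11, adjusted p = 0.142). ACTN4 fell against KD (log2 -0.25) and control (-0.35). The fall of FLNA against control was not called without library 1 or 2 labelled KD+CAPN2 or control library 2 or 3 (log2 -0.30 to -0.23, adjusted p from 0.0687 to 0.154), nor with upper-quartile factors or a replicate block, alone or with the GC and length offset (log2 -0.29 to -0.18, adjusted p from 0.0554 to 0.183). With both the offset and the block the fall was log2 -0.18 (adjusted p = 0.0641). That of ACTN4 against KD was not called without library 1 labelled KD or library 1 or 2 labelled KD+CAPN2 (log2 -0.25 to -0.15, adjusted p from 0.0906 to 0.128) or in 3 of 9 alternative fits (log2 -0.25 to -0.19, adjusted p from 0.0607 to 0.109). Against control ACTN4 was not called with the GC and length offset plus a replicate block (log2 -0.15, adjusted p = 0.056). With the GC and length offset the changes of FSCN1, LIMA1 and FLNA between KD and control were smaller (log2 -0.40, adjusted p from 1.57e-05 to 6.75e-05, log2 0.24, adjusted p from 0.00379 to 0.00456 and log2 -0.24, adjusted p from 0.0165 to 0.0253), and the fall of LIMA1 against control was larger (log2 -0.63, adjusted p from 2.55e-08 to 8.27e-08). The falls against control of ACTN4 (log2 -0.15, adjusted p = 0.0425) and FLNA (log2 -0.18, adjusted p = 0.0481) were smaller with it as well. Without library 1 labelled KD, FLNA was called higher against KD (log2 0.35, adjusted p = 0.00547).

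Of the 4 tropomyosins, which lie along filaments and control access of cofilin and myosin, TPM2, TPM3 and TPM4 fell in libraries labelled KD+CAPN2 against control and TPM1 rose. In that comparison 28.4% of all genes were called lower and 27.9% higher. Of genes of at least 50 CPM, 45.8% were called lower and 25.6% higher. TPM2 (chr9:35681992-35690121, - strand) stood at 34.4, 39.3 and 48.2 CPM in libraries labelled KD+CAPN2. The TPM2 level was 105, 62.9 and 86.0 CPM in libraries labelled KD and 76.6, 84.1 and 79.2 CPM in control, with all libraries labelled KD+CAPN2 below the rest. It fell 2.08-fold against KD (log2 -1.05 ± 0.15, adjusted p = 2.05e-05) and 1.97-fold against control (log2 -0.98 ± 0.15, adjusted p = 3.22e-05), and did not pass between KD and control (log2 0.08 ± 0.15, adjusted p = 0.72). TPM3, the most abundant in CPM (chr1:154155304-154194648, - strand), stood at 402, 414 and 408 CPM in libraries labelled KD+CAPN2. The TPM3 level was 669, 688 and 793 CPM in libraries labelled KD and 679.9, 717 and 708 CPM in control. The libraries were ordered as for TPM2, with falls of 1.76-fold against KD (log2 -0.81 ± 0.086, adjusted p = 3.10e-07) and 1.72-fold against control (log2 -0.78 ± 0.086, adjusted p = 2.83e-07). TPM4, another with a CArG box shown above (chr19:16067021-16103005, + strand), stood at 272, 266 and 269.7 CPM in libraries labelled KD+CAPN2. The TPM4 level was 302, 275 and 295 CPM in libraries labelled KD and 387, 405 and 388 CPM in control. Its sets did not overlap, but the step lay elsewhere. TPM4 fell between KD and control (log2 -0.44 ± 0.079, adjusted p = 0.000315) and in libraries labelled KD+CAPN2 against control (log2 -0.55 ± 0.079, adjusted p = 9.23e-06), and did not pass between the labelled sets (log2 -0.11 ± 0.079, adjusted p = 0.261). TPM1 averaged 32.8, 36.4 and 25.3 CPM in libraries labelled KD+CAPN2, those labelled KD and control, and rose against control in both labelled sets (log2 0.37 and 0.52). With the GC and length offset its rise in libraries labelled KD+CAPN2 was not called (log2 0.20, adjusted p from 0.052 to 0.063), and against KD it was called lower (log2 -0.29, adjusted p from 0.00641 to 0.00915).

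In myosin II, the motor of contraction, the heavy chain genes MYH9 and MYH10 and the essential light chain gene MYL6 fell in libraries labelled KD+CAPN2 against control. The regulatory light chain genes MYL12A and MYL12B rose between KD and control, and MYL9, another of that class, passed in no comparison. Of 6 genes, 3 fell against KD and 3 against control with 0 rises, and 2 rose between KD and control with 0 falls. Beside them, 49.2%, 56.3% and 34.6% of all genes were called in either direction in that order. Of genes of at least 50 CPM, 63.4%, 71.4% and 48.5% were called, a higher share than of the myosin genes in each comparison. MYH9, the heavy chain of myosin IIA (chr22:36281277-36388067, - strand), stood at 519, 549 and 617 CPM in libraries labelled KD+CAPN2. The MYH9 level was 728, 561 and 542 CPM in libraries labelled KD and 677, 724 and 736 CPM in control. Its labelled sets overlapped and control lay above those labelled KD+CAPN2. MYH9 fell against control (log2 -0.34 ± 0.11, adjusted p = 0.00986), with no call against KD (log2 -0.12 ± 0.11, adjusted p = 0.371). MYL6, an essential light chain (chr12:56158161-56163496, + strand), stood at 165, 179 and 194 CPM in libraries labelled KD+CAPN2. The MYL6 level was 256, 166 and 264 CPM in libraries labelled KD and 263, 269 and 255 CPM in control. Library 2 labelled KD again lay within the range of those labelled KD+CAPN2. MYL6 fell against control (log2 -0.55 ± 0.13, adjusted p = 0.00131) and, with overlapping libraries, against KD (log2 -0.35 ± 0.13, adjusted p = 0.0301). MYL12B, a regulatory light chain (chr18:3261479-3278431, + strand), stood at 347, 363 and 339 CPM in libraries labelled KD+CAPN2. The MYL12B level was 395, 414 and 505 CPM in libraries labelled KD and 323, 306 and 332 CPM in control. Libraries labelled KD were above all others and control below all others. It rose between KD and control (log2 0.45 ± 0.094, adjusted p = 0.00108), fell against KD (log2 -0.32 ± 0.094, adjusted p = 0.00769) and did not pass against control (log2 0.13 ± 0.094, adjusted p = 0.265). MYL12A, its close relative (chr18:3247481-3256236, + strand), stood at 127, 123 and 121 CPM in libraries labelled KD+CAPN2. The MYL12A level was 132, 137 and 168 CPM in libraries labelled KD and 116, 104 and 113 CPM in control in the same order, and rose between KD and control (log2 0.39 ± 0.096, adjusted p = 0.00377) with a small fall against KD (log2 -0.23 ± 0.096, adjusted p = 0.0492). MYH10, the heavy chain of myosin IIB, fell against control (-0.37), and MYL9 stood at 7.01 to 8.53 CPM. Against KD, MYL6 was not called without library 1 or 3 labelled KD or 1 or 2 labelled KD+CAPN2 (log2 -0.35 to -0.24, adjusted p from 0.0723 to 0.154) or in 4 of 9 alternative fits (log2 -0.35 to -0.23, adjusted p from 0.0526 to 0.168), with the GC and length offset among them (log2 -0.25 to -0.23, adjusted p from 0.134 to 0.168). It stood lower without library 2 labelled KD (log2 -0.57, adjusted p = 1.60e-05). MYL12A was not called without library 3 labelled KD, any library labelled KD+CAPN2 or control library 1 or 3 (log2 -0.28 to -0.13, adjusted p from 0.0542 to 0.194) or in 6 of 9 alternative fits (log2 -0.23 to -0.06, adjusted p from 0.0656 to 0.508), again with the offset among them (log2 -0.06, adjusted p from 0.495 to 0.508). MYL12B was not called there with the GC and length offset plus a replicate block (log2 -0.18, adjusted p = 0.0522), and was smaller with the offset alone (log2 -0.18, adjusted p = 0.0406). The fall of MYH9 against control was not called without library 1 labelled KD+CAPN2 (log2 -0.29, adjusted p = 0.0621) or with upper-quartile factors (log2 -0.24, adjusted p = 0.0686). Several members not called changed with the GC and length offset. MYH9 and MYH10 were then called lower against KD (log2 -0.22, adjusted p from 0.00881 to 0.0141, and log2 -0.32 to -0.24, adjusted p from 0.00392 to 0.00842 including the fit without library 3 labelled KD). MYL9 was then called higher between KD and control (log2 0.49 to 0.50, adjusted p from 0.00715 to 0.0109) and for KD+CAPN2 against control (log2 0.44, adjusted p from 0.0105 to 0.015). For KD+CAPN2 against control MYL12A and MYL12B were called higher in 4 of 18 alternatives each, the offset among them (log2 0.17 to 0.26, adjusted p from 0.00481 to 0.0242, and log2 0.14 to 0.27, adjusted p from 0.00455 to 0.0392). Between KD and control MYH9 was called lower without library 1 labelled KD (log2 -0.37, adjusted p = 0.00297). Exons of MYL6 overlap SMARCC2 on the other strand over 11.2% of their length.

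The proteins that fix filaments to the membrane divided between ezrin and moesin on one side and radixin and spectrins on the other. EZR, the gene of ezrin (chr6:158765741-158819412, - strand), stood at 214, 231 and 247 CPM in libraries labelled KD+CAPN2. The EZR level was 388, 335 and 396 CPM in libraries labelled KD and 364, 393 and 376 CPM in control. MSN, the gene of moesin (chrX:65588377-65741931, + strand), stood at 203, 201 and 207 CPM in libraries labelled KD+CAPN2. The MSN level was 365, 312 and 311 CPM in libraries labelled KD and 310.0, 334 and 325 CPM in control. For both, all libraries labelled KD+CAPN2 lay below the other 6 and the other sets overlapped. EZR fell 1.62-fold against KD (log2 -0.69 ± 0.090, adjusted p = 3.60e-06) and 1.64-fold against control (log2 -0.71 ± 0.090, adjusted p = 1.71e-06). MSN fell 1.62-fold (log2 -0.69 ± 0.086, adjusted p = 2.24e-06) and 1.59-fold (log2 -0.66 ± 0.086, adjusted p = 2.34e-06). Neither passed between KD and control (-0.02 and 0.03). SPTBN1, a β-spectrin of the cortical lattice (chr2:54456285-54671445, + strand), stood at 273, 292 and 303 CPM in libraries labelled KD+CAPN2. The SPTBN1 level was 249, 230.4 and 183 CPM in libraries labelled KD and 277, 268 and 278 CPM in control. Libraries labelled KD were lowest and the other sets overlapped. SPTBN1 rose in libraries labelled KD+CAPN2 against KD (log2 0.39 ± 0.10, adjusted p = 0.00306), fell between KD and control (log2 -0.31 ± 0.10, adjusted p = 0.0196) and did not pass against control (log2 0.08 ± 0.10, adjusted p = 0.53). RDX, the gene of radixin, and SPTAN1, an α-spectrin, also rose against KD (log2 0.30 and 0.28) and did not pass otherwise. Of these rises, RDX was not called without library 3 labelled KD or 1 or 2 labelled KD+CAPN2 (log2 0.20 to 0.29, adjusted p from 0.0659 to 0.179), and SPTAN1 without library 3 labelled KD or 1 or 3 labelled KD+CAPN2 (log2 0.19 to 0.25, adjusted p from 0.0652 to 0.0714). Both rises were lost with the GC and length offset (log2 0.12, adjusted p from 0.121 to 0.129 for RDX, log2 0.05, adjusted p from 0.518 to 0.547 for SPTAN1). That of RDX was also lost in limma voom (log2 0.29, adjusted p = 0.0581) and that of SPTAN1 with no filter on low counts (log2 0.25, adjusted p = 0.0711). That of SPTBN1 was smaller (log2 0.15, adjusted p = 0.0395), or not called once a replicate block was added (log2 0.15, adjusted p = 0.0557). The fall of SPTBN1 between KD and control was not called without library 3 labelled KD or control library 1 or 3 (log2 -0.31 to -0.20, adjusted p from 0.0548 to 0.066) or in the fit to those groups alone (log2 -0.29, adjusted p = 0.0612). SPTAN1 was called lower there without library 1 labelled KD (log2 -0.26, adjusted p = 0.0363), and RDX with the GC and length offset (log2 -0.31, adjusted p from 0.000817 to 0.000946). For KD+CAPN2 against control RDX was called higher in 4 of 18 alternatives (log2 0.20 to 0.30, adjusted p from 0.0145 to 0.0491) and lower with the GC and length offset (log2 -0.19, adjusted p from 0.0162 to 0.0165).

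Integrin adhesion genes moved in both directions, and VCL, PXN and PARVA passed in no comparison. Of 13 members 12 were tested. Against KD 3 rose and 3 fell, against control 1 rose and 5 fell, and between KD and control 1 rose and 5 fell. Called in those comparisons were 49.2%, 56.3% and 34.6% of all genes, and 63.4%, 71.4% and 48.5% of genes of at least 50 CPM. Among the members the share was below that of those abundant genes against KD and control, and near it between KD and control. TNS4, a tensin of epithelial cells also called cten (chr17:40475828-40501597, - strand), stood at 44.4, 47.3 and 47.5 CPM in libraries labelled KD+CAPN2. The TNS4 level was 96.6, 92.5 and 77.0 CPM in libraries labelled KD and 66.4, 70.1 and 68.8 CPM in control. No sets overlapped, with libraries labelled KD highest. TNS4 fell 1.91-fold against KD (log2 -0.93 ± 0.098, adjusted p = 2.85e-07) and 1.47-fold against control (log2 -0.56 ± 0.098, adjusted p = 7.66e-05), and rose between KD and control (log2 0.37 ± 0.096, adjusted p = 0.00534). TNS3, another tensin, averaged 121 ± 6.71, 79.5 ± 10.2 and 93.2 ± 4.75 CPM in libraries labelled KD+CAPN2, those labelled KD and control (SD, n = 3 each). It rose against KD (log2 0.60) and control (0.38). LIMS1, the gene of PINCH1, a partner of integrin-linked kinase (chr2:108534355-108687246, + strand), stood at 36.8, 28.5 and 26.1 CPM in libraries labelled KD+CAPN2. The LIMS1 level was 28.3, 36.0 and 31.9 CPM in libraries labelled KD and 51.7, 56.2 and 58.7 CPM in control. Both labelled sets overlapped below control, with falls in libraries labelled KD+CAPN2 (log2 -0.87 ± 0.13, adjusted p = 8.86e-06) and KD (log2 -0.79 ± 0.12, adjusted p = 7.91e-05) against control. TLN2, the rarer talin (chr15:62390526-62844631, + strand), stood at 6.48, 6.73 and 6.73 CPM in libraries labelled KD+CAPN2. The TLN2 level was 4.78, 5.33 and 2.81 CPM in libraries labelled KD and 7.24, 7.72 and 8.98 CPM in control, from 48 to 146 counts per library, with no overlap of the sets. It fell between KD and control (log2 -0.88 ± 0.20, adjusted p = 0.00203) and rose against KD (log2 0.62 ± 0.20, adjusted p = 0.0156). TLN1, the main talin, which activates integrins, fell in libraries labelled KD+CAPN2 (log2 -0.46) and KD (-0.29) against control. The kindlin genes FERMT1 and FERMT2, whose products help talin, fell likewise. Their log2 fold changes were -0.59 and -0.24 in libraries labelled KD+CAPN2, -0.37 and -0.47 in those labelled KD. FERMT1 also fell against KD (-0.22). VCL, the gene of vinculin, which reinforces the link under tension (chr10:73995193-74121363, + strand), stood at 333, 338 and 359 CPM in libraries labelled KD+CAPN2. The VCL level was 399.8, 417 and 336 CPM in libraries labelled KD and 381, 396 and 395 CPM in control. Libraries labelled KD spanned both other sets, and no comparison passed: log2 -0.16 ± 0.089, adjusted p = 0.144 against KD, log2 -0.19 ± 0.089, adjusted p = 0.085 for KD+CAPN2 against control, and log2 -0.02 ± 0.089, adjusted p = 0.858 between KD and control. The scaffold gene PXN (paxillin) and PARVA (α-parvin) did not pass in any comparison either, with log2 fold changes between -0.12 and 0.22. PTK2, the gene of focal adhesion kinase, rose against KD (0.21), and ZYX, the gene of zyxin, fell (-0.25), both close to the threshold.

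Several of these adhesion calls depended on single libraries. Against KD, TLN2 was not called without library 3 labelled KD (log2 0.38, adjusted p = 0.0778), and PTK2 not without any 1 of 8 libraries, all but library 2 labelled KD (log2 0.16 to 0.22, adjusted p from 0.0675 to 0.193), nor in 5 of 9 alternative fits (log2 0.04 to 0.21, adjusted p from 0.0651 to 0.572; log2 0.04, adjusted p from 0.546 to 0.572 with the GC and length offset). FERMT1 was not called there without library 1 labelled KD, 2 or 3 labelled KD+CAPN2 or any control library (log2 -0.23 to -0.20, adjusted p from 0.0503 to 0.147), nor in 7 of 9 alternative fits (log2 -0.26 to -0.14, adjusted p from 0.0624 to 0.138; log2 -0.14, adjusted p from 0.0938 to 0.0988 with that offset). ZYX was not called there without library 1 or 3 labelled KD, 1 or 2 labelled KD+CAPN2 or control library 3 (log2 -0.26 to -0.17, adjusted p from 0.0544 to 0.152), nor in 6 of 9 alternative fits (log2 -0.25 to -0.13, adjusted p from 0.0695 to 0.128; log2 -0.13, adjusted p from 0.088 to 0.109 with that offset). It fell more without library 2 labelled KD (log2 -0.38, adjusted p = 0.00198). FERMT2 was not called in libraries labelled KD+CAPN2 against control without any 1 of the 6 libraries compared (log2 -0.28 to -0.22, adjusted p from 0.0581 to 0.116), nor in 3 of 9 alternative fits (log2 -0.26 to -0.14, adjusted p from 0.0578 to 0.224). TLN1 was not called in libraries labelled KD without library 3 labelled KD, 1 labelled KD+CAPN2 or any control library (log2 -0.30 to -0.20, adjusted p from 0.0522 to 0.106), nor in 4 of 9 alternative fits, the GC and length offset among them (log2 -0.26 to -0.09, adjusted p from 0.0608 to 0.359; log2 -0.09, adjusted p from 0.321 to 0.359 with the offset). The GC and length offset ended the call of TLN2 against KD (log2 0.40 to 0.41, adjusted p from 0.0609 to 0.0704) and made the falls of FERMT2 larger (log2 -0.74, adjusted p from 2.63e-08 to 5.33e-08 against control for KD+CAPN2, log2 -0.75, adjusted p from 1.06e-07 to 2.24e-07 for KD). With it TNS4 rose more between KD and control (log2 0.57, adjusted p from 7.63e-06 to 1.58e-05) and fell less against control (log2 -0.32, adjusted p from 0.00212 to 0.00214). Some members not called passed under alternatives. VCL was called lower for KD+CAPN2 against control in 7 of 18 alternatives (log2 -0.32 to -0.17, adjusted p from 0.000269 to 0.0487) and against KD in 3 of 18 (log2 -0.26 to -0.24, adjusted p from 0.00517 to 0.00938), the GC and length offset among them in both. TLN1 was called lower against KD with that offset or without library 3 labelled KD (log2 -0.31 to -0.27, adjusted p from 0.000414 to 0.0126). FERMT2 was called higher against KD with upper-quartile factors or without library 2 labelled KD (log2 0.27 to 0.28, adjusted p from 0.0209 to 0.0284), and PARVA with upper-quartile factors (log2 0.28, adjusted p = 0.0205). PTK2 was called higher for KD+CAPN2 against control in 4 of 18 alternatives (log2 0.17 to 0.28, adjusted p from 0.00522 to 0.0384). With the GC and length offset ZYX was called higher for KD against control (log2 0.39, adjusted p from 4.88e-05 to 0.000159) and for KD+CAPN2 against control (log2 0.26, adjusted p from 0.00129 to 0.00255). TNS3 was called lower between KD and control without library 1 labelled KD (log2 -0.32, adjusted p = 0.0135). Exons of VCL overlap AP3M1 on the other strand over 11.1% of their length, while 21.5% of the 50-base words of LIMS1 also occur in other genes. ILK, the gene of integrin-linked kinase, held at most 9 counts in a library. Of its exon bases 68.1% overlap TAF10 on the other strand, with 59.8% of its 50-base words in other genes. It was not tested.

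Members that are textbook calpain substrates were also counted together, although no protein was measured: TLN1, FLNA, PTK2, PXN, EZR, SPTAN1, SPTBN1, VCL and ACTN1. Against KD 3 of these 9 rose and 2 fell, with a median log2 fold change of 0.02, against 0.01 over all genes. The share called there was 55.6%, beside 49.2% of all genes and 63.4% of genes of at least 50 CPM. Against control 0 rose and 4 fell in libraries labelled KD+CAPN2 (median -0.19), where the median was 0.02 over all genes and -0.17 over genes of at least 50 CPM. In libraries labelled KD 0 rose and 3 fell (median -0.12), where those medians were -0.01 and -0.06. The shares that fell are near the 45.8% and 30.2% called lower among genes of at least 50 CPM. The falls against KD were those of EZR and ACTN1, and the rises were the spectrins SPTAN1 and SPTBN1 and PTK2.

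Related genes were then set against each other within a library, a ratio that does not depend on scaling between libraries. It was taken from counts with no offset for GC content or length, so a trend with either can still enter it. Of 15 pairs compared in 3 ways, 23 of 45 comparisons had no overlap of libraries, 8 of them against KD, 9 for KD+CAPN2 against control and 6 for KD against control. Levels of single genes had no overlap in 54.0%, 66.9% and 44.7% of all genes tested in those comparisons, so that lack of overlap was common in these libraries. With 3 libraries a side the two-sided exact permutation test cannot go below p = 0.1, and all 23 reached that value, 0.196 after adjustment over the 45. The log2 ratio of TMSB10 to TMSB4X averaged -0.78 ± 0.21 in libraries labelled KD+CAPN2, 0.37 ± 0.66 in those labelled KD and 1.42 ± 0.19 in control (SD, n = 3 each). Its change of -2.20 in libraries labelled KD+CAPN2 against control corresponds to 4.58-fold. For TNS3 to TNS4 the log2 ratio was 1.38 ± 0.028 in libraries labelled KD+CAPN2, -0.16 ± 0.046 in those labelled KD and 0.44 ± 0.11 in control (SD, n = 3 each), highest in libraries labelled KD+CAPN2 and lowest in those labelled KD, 2.90-fold apart. For TPM1 to TPM4 it was -3.04 ± 0.032 in libraries labelled KD+CAPN2, -3.0 ± 0.080 in those labelled KD and -3.96 ± 0.11 in control (SD, n = 3 each), so that both labelled sets lay 1.89-fold and 1.95-fold above control. The ratio of PFN1 to PFN2 was 2.24 ± 0.21 in libraries labelled KD+CAPN2, 2.48 ± 0.24 in those labelled KD and 3.11 ± 0.075 in control (SD, n = 3 each), lower in both labelled sets than in control. The GC content of PFN1 is 58.5% and that of PFN2 is 41.6%. By contrast the ratio of EZR to MSN (0.18 ± 0.089 in libraries labelled KD+CAPN2, 0.18 ± 0.15 in those labelled KD and 0.23 ± 0.014 in control (SD, n = 3 each)) and that of MYH9 to MYH10 (2.73 ± 0.099 in libraries labelled KD+CAPN2, 2.65 ± 0.18 in those labelled KD and 2.71 ± 0.12 in control (SD, n = 3 each)) overlapped in every comparison, with exact p from 0.6 to 0.9. ACTB to ACTG1 moved by 0.18 at most, with libraries labelled KD+CAPN2 below both other sets.

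**Figure D5:**
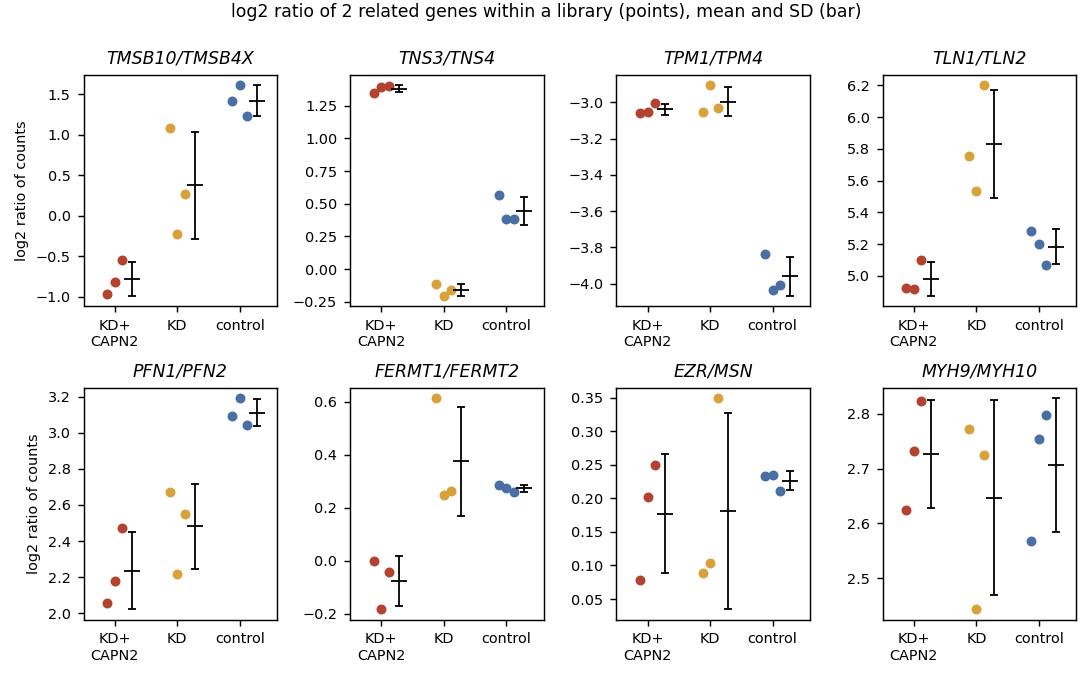
Log2 ratio of the counts of 2 related genes in each library (points) with mean and SD (bar), in 3 sets from left to right; the sets are named by label, and the vertical axes do not start at 0. TMSB10/TMSB4X is lowest in libraries labelled KD+CAPN2 and highest in control, TNS3/TNS4 separates all 3 sets, and EZR/MSN and MYH9/MYH10 overlap.

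Other genes of the same pathways, 103 in number of which 97 were tested, also moved in both directions. Against KD 19 rose and 42 fell (median -0.10), between KD and control 27 rose and 19 fell (0.04), and for KD+CAPN2 against control 32 rose and 36 fell (-0.08). That is 62.9%, 47.4% and 70.1% called, beside 49.2%, 34.6% and 56.3% of all genes. Of genes of at least 50 CPM, a near share of 63.4%, 48.5% and 71.4% was called. Called lower were 40.3%, 30.2% and 45.8% of those genes, and their medians were -0.13, -0.06 and -0.17. The same shares stand beside the counts of the lists below.

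Among 13 tested genes of serum response factor, its cofactors and textbook targets, 2 rose and 6 fell against KD. In this list 4 rose and 4 fell between KD and control, and 4 rose and 6 fell for KD+CAPN2 against control. CYR61, a secreted target of that factor, fell against KD (log2 -1.74 ± 0.088, adjusted p = 1.98e-11) and rose between KD and control (log2 1.09 ± 0.086, adjusted p = 2.17e-08). TAGLN2, a transgelin, fell for KD+CAPN2 against control (log2 -1.30 ± 0.097, adjusted p = 1.94e-09), as did SRF itself (log2 -0.32 ± 0.12, adjusted p = 0.0253). Of its cofactor genes MRTFB rose (log2 0.45 ± 0.12, adjusted p = 0.00283) and MRTFA fell (log2 -0.41 ± 0.11, adjusted p = 0.00257). Among 19 tested genes of the WAVE complex and other nucleators, 5 rose and 8 fell against KD. SPIRE1, which starts unbranched filaments, rose (log2 1.34 ± 0.091, adjusted p = 9.64e-10) and BRK1, a WAVE subunit, fell (log2 -0.64 ± 0.10, adjusted p = 3.40e-05). In that set 7 rose and 5 fell between KD and control, and 7 rose and 6 fell for KD+CAPN2 against control. Of 22 further severing, capping and bundling genes, 2 rose and 13 fell against KD. Among them 9 rose and 4 fell between KD and control, and 8 rose and 8 fell for KD+CAPN2 against control. TWF1, a monomer-binding twinfilin, rose against KD (log2 0.95 ± 0.11, adjusted p = 7.64e-07) and LCP1, a bundling plastin, fell (log2 -0.91 ± 0.097, adjusted p = 3.37e-07). Between KD and control GSN, the gene of gelsolin, rose (log2 0.96 ± 0.10, adjusted p = 1.40e-06). Of 21 tested genes of other adhesion and LIM proteins, 4 rose and 6 fell against KD. Of the same 21, 2 rose and 2 fell between KD and control, and 7 rose and 7 fell for KD+CAPN2 against control. TES, the gene of testin, rose against KD (log2 0.93 ± 0.087, adjusted p = 7.39e-08), and NEDD9, a docking protein of focal adhesion kinase and Src, rose between KD and control (log2 1.37 ± 0.14, adjusted p = 6.36e-07).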

How the data were processed

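Per the labels' protocols, RNA of FaDu cells was extracted with TRIzol and made into libraries with a NEBNext Ultra kit. What the authors deposited is a single table of whole-number counts, raw and per gene. The submitters' processing notes name hg19, featureCounts 1.5.0-p3, StringTie 1.3.3b and HISAT2 2.0.5 without giving their roles. Positions and exon lengths of all 58735 genes in the table equalled those of GENCODE v29 on GRCh38, so positions are given on that build. The strand setting, and how reads with several matching places or genes were treated, is not given in the sources used here.

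The fit used edgeR 4.0.16 (R 4.3.3): filterByExpr by group (at least 10 counts), which left 16812 genes, TMM factors, and a robust quasi-likelihood model with 1 term per group fitted to all 9 libraries (6 residual degrees of freedom before moderation). Each contrast had edgeR's quasi-likelihood test, Benjamini-Hochberg adjustment ran across the 16812 genes, and an adjusted p under 0.05 was a call. Levels are CPM scaled with TMM factors, computed from the deposited counts. Errors of log2 fold changes are SE with 95% intervals, and p-values measure only the spread between these cultures of 1 line. Ratios of related genes were compared with a two-sided exact permutation test over libraries. The steps were tested on simulated data. Alternatives were DESeq2 1.42.0, limma 3.58.1 (voom), other scalings, no filter, only the groups compared, a replicate block, an offset for GC content and length (spline with 5 degrees of freedom), and each library left out.

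Members, gene lists, pairs, motifs and tests were chosen with earlier results of these data known. Given with a value in every library were, in each role, the 3 members with the largest called change in any contrast and the member with the highest mean CPM, and TNS3, TPM1, ARPC1B and other members are named beside them. Replicate numbers did not pair the libraries: same-numbered libraries of different groups had correlations of deviations from -0.111 to 0.063. Of 106 further pathway symbols fixed as a list, 103 were found and 97 tested. The results of 1 group of these genes are not reported here. Where a gene has near-identical copies, the deposited counts may divide its reads among them.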

Additional observations from a re-analysis of the deposited data

How the results depend on the processing

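The total of members called moved by at most 1.5 times in each comparison under the 18 alternatives, and so did the falls. The rises alone ranged from 2 to 9 for KD+CAPN2 against KD (7 in the fit reported) and from 5 to 9 for KD+CAPN2 against control (5 in the fit reported). Members called were 28 to 39 of 54 with 1 library left out for KD+CAPN2 against KD, 18 to 30 for KD against control and 33 to 38 for KD+CAPN2 against control, and 30 to 37, 20 to 27 and 34 to 43 under the other alternatives. With a replicate block 31, 23 and 34 members were called in that order, against 37, 24 and 36 without it. The calls held in all 18 alternatives were 22 of 30 falls and 2 of 7 rises for KD+CAPN2 against KD, 7 of 12 falls and 8 of 12 rises for KD against control, and 26 of 31 falls and 4 of 5 rises for KD+CAPN2 against control. Directions of 4 members that had not been called turned round and passed with the GC and length offset. These were ACTR2 for KD against control (log2 -0.16), ENAH for KD+CAPN2 against KD (-0.18, and -0.17 with a replicate block) and against control (-0.40 in both fits), ZYX against control (0.26 in both) and RDX against control (-0.19 in both). The cause was not tested. Ratios of related genes moved by less than the spread between libraries under all alternatives run for them. No ratio with an offset for GC content is given here. ILK, with at most 9 counts in a library, could not be tested, and whether its shared sequence lowered those counts was not tested.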
